A study of Homo sapiens with 18 samples.

Results

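The 10 genes described here are NFE2L2, which encodes the transcription factor NRF2, its inhibitor KEAP1, its dimer partner MAFG, and 7 antioxidant genes that NRF2 is known to activate. These are GCLC, GCLM, TXNRD1, SRXN1, NQO1, HMOX1 and OSGIN1. They were taken by gene symbol from the 26485 symbols counted in every library, and all 10 had enough reads to be tested among 14011 genes. Poly(A) RNA was sequenced from BxPC3, Panc327 and SUIT2 cells, which are human lines of pancreatic ductal adenocarcinoma, each kept for 6 h with 100 nM THZ1 or with DMSO alone. THZ1 binds covalently to CDK7, a kinase of the RNA polymerase II machinery, and also acts on its relatives CDK12 and CDK13. Each of the 6 groups (BxPC3 with THZ1 and with DMSO, Panc327 with THZ1 and with DMSO, SUIT2 with THZ1 and with DMSO) had 3 libraries. The labels name no genetic change in any group and describe the culture conditions only as standard. Nothing in them says that the 3 libraries of a group are independent cultures, and p-values therefore refer to the spread between libraries, which may be technical.

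NRF2 is regulated mainly as a protein. KEAP1 is an adaptor that brings NRF2 to a CUL3 ubiquitin ligase for degradation, and oxidants or electrophiles that modify cysteines of KEAP1 let NRF2 escape, enter the nucleus, pair with a small MAF protein such as MAFG and bind antioxidant response elements. The genes it activates make and use glutathione, keep thioredoxin and peroxiredoxins reduced and detoxify quinones, and in pancreatic cancer cells NRF2 is known to support redox balance and growth. The count of NFE2L2 RNA does not measure NRF2 protein.

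Promoter sequence was available for 9 of the 10 genes in RefSeq (build GRCh38.p14, 250 bases before to 50 bases after each start). The core letters of the antioxidant response element, TGACNNNGC on either strand, occurred in 4 of their 12 windows, those of GCLM, TXNRD1 and KEAP1, against 13.3% of 35116 windows of all genes. A related form, TGAGNNNGC, occurred in 6 of the 12 windows, against 18.3% of all windows. Neither form occurred in the windows of GCLC, SRXN1 or MAFG. The following windows are shown because GCLM and KEAP1 hold the same core letters at nearly the same distance from a start, TXNRD1 differs from them in the spacer, and OSGIN1 holds the related form. Those of KEAP1 and TXNRD1 belong to the downstream start of each gene. At the upstream start, KEAP1 held neither form and TXNRD1 held other core matches. The stretches shown for GCLM, KEAP1 and TXNRD1 overlap annotated exons of these genes (GENCODE 29). Capitals mark the motif, which in all 4 is read on the strand opposite to the gene, as TGACTAAGC for GCLM and KEAP1, TGACAAAGC for TXNRD1 and TGAGTCAGC for OSGIN1. The OSGIN1 window also holds TGANTCA, the letters bound by AP-1 factors, which overlap the motif. These are matches of letters only.
GCLM, chr1:93909446-93909474 (minus strand): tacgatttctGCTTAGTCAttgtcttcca
KEAP1, chr19:10502784-10502812 (minus strand): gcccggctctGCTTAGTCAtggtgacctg
TXNRD1, chr12:104286920-104286948 (plus strand): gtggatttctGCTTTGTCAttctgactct
OSGIN1, chr16:83953131-83953159 (plus strand): acgggcccctGCTGACTCAcgcttatgaa

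Levels are CPM (counts scaled by TMM to a common library total), and fold changes are log2 values of THZ1 over DMSO from the edgeR quasi-likelihood test, with Benjamini-Hochberg adjustment over all tested genes and a threshold of 0.05. A direction is thus relative to the median gene. In bulk RNA fewer cells and less RNA per cell cannot be told apart. Gene counts per library lay between 5626146 and 8631273. Records aligned to several places made up 22.8% ± 0.805 of the records in BxPC3 with THZ1 and 12.8% ± 0.609 with DMSO (SD, n = 3 each). In Panc327 they made up 52.8% ± 1.81 with THZ1 and 13.6% ± 0.149 with DMSO, and in SUIT2 12.9% ± 0.902 with THZ1 and 13.2% ± 0.726 with DMSO. The part of this shift in the fold changes below was not tested. All 5 epithelial markers were expressed in every group, with summed levels of 3718 to 8158 CPM. The 11 markers of immune, endothelial and stromal cells summed to 33.5 to 124 CPM. In each group 7 or 8 of the 11 averaged under 1 CPM, so the remaining markers made up most of that sum. The leukocyte marker PTPRC was at 0 in 5 of the 6 groups. Both sums were higher with THZ1 in BxPC3 and Panc327. The epithelial sum was 7588 to 7830 CPM with THZ1 and 4821 to 4874 CPM with DMSO in BxPC3, and the other sum was 51.9 to 61.6 CPM with THZ1 and 33.5 to 36.4 CPM with DMSO. In Panc327 the epithelial sum was 5302 to 5570 CPM with THZ1 and 3718 to 3771 CPM with DMSO, and the other sum 106 to 124 CPM with THZ1 and 73.1 to 77.8 CPM with DMSO. In SUIT2 both sums overlapped between the groups. Their part in the results was not tested.

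In BxPC3 and Panc327, THZ1 lowered RNA of the inhibitor KEAP1 by more than that of NFE2L2 and raised MAFG 3.10-fold and 3.08-fold. Among the antioxidant genes NQO1 rose, while GCLC, TXNRD1, SRXN1 and OSGIN1 fell in both lines and HMOX1 fell in Panc327. In SUIT2, 8 of the 10 genes did not pass the test. In BxPC3, 2 genes rose and 6 fell, against 35.2% of all tested genes called higher and 34.1% called lower (69.4% in all), and the median log2 fold change of the 10 was -0.39. In Panc327, 3 rose and 7 fell, one of the rises being GCLM, which turned to -0.13 with library size only, against 35.6% and 37.8% of all tested genes (73.4% in all), with a median of -0.89. In SUIT2, 1 rose and 1 fell, against 6.95% and 7.64% (14.6% in all), with a median of -0.04. The median over all tested genes was 0.00 in BxPC3, -0.01 in Panc327 and 0.01 in SUIT2.

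**Figure D1:**
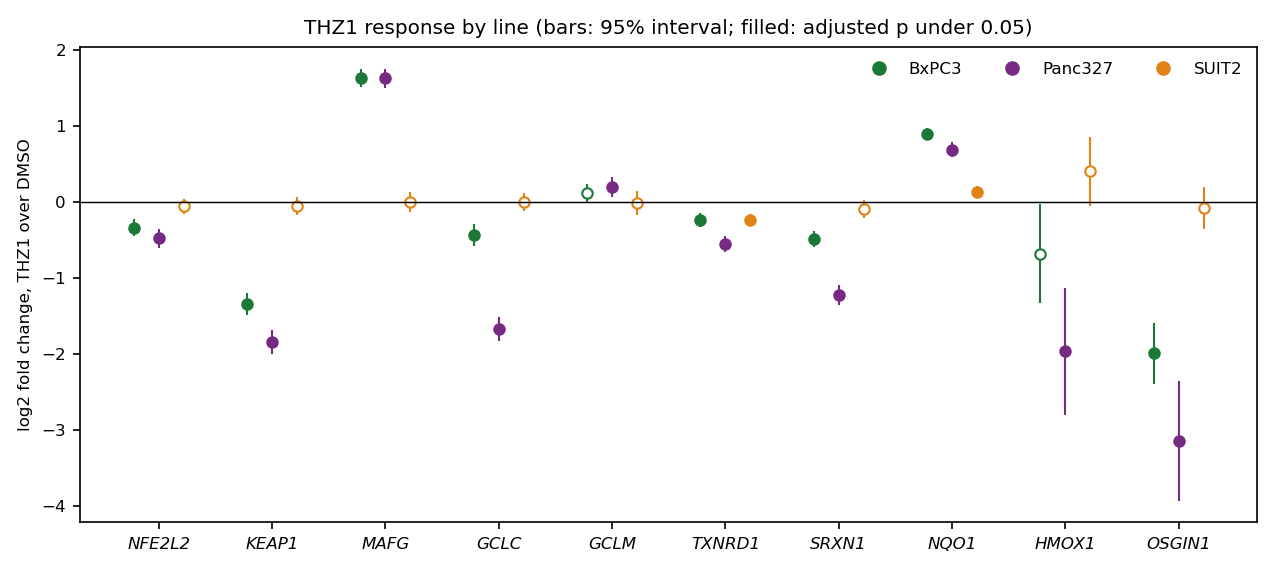
Log2 fold change of THZ1 over DMSO for each of the 10 genes in BxPC3, Panc327 and SUIT2 (points), with 95% intervals as bars and filled points where the adjusted p was under 0.05. MAFG stands near 1.6 in BxPC3 and Panc327 and at 0.00 in SUIT2, KEAP1 and OSGIN1 are well below 0 in the same 2 lines, and GCLM lies close to 0, where its direction depends on the scaling.

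Among the regulators, NFE2L2 (chromosome 2, 177227595 to 177392697, minus strand, GENCODE 29 on GRCh38) had 86.4, 90.7 and 88.0 CPM in BxPC3 with THZ1, against 116, 110 and 110 CPM with DMSO. In Panc327 it had 72.9, 66.0 and 66.5 CPM with THZ1, against 101, 91.2 and 95.4 CPM with DMSO. All THZ1 libraries of these lines were below all DMSO libraries of the same line, and NFE2L2 fell with log2 fold changes of -0.34 (SE 0.06, edgeR quasi-likelihood adjusted p = 2.08e-07) and -0.48 (SE 0.06, edgeR adjusted p = 6.53e-11). SUIT2 had 127, 118 and 129 CPM with THZ1 and 132, 125 and 133 CPM with DMSO. The SUIT2 groups overlapped, and the 95% interval of the fold change was -0.16 to 0.04. A part of AGPS on the opposite strand overlaps an exon of NFE2L2, and since the strand setting of the counting is not given in the sources used here, reads there cannot be told apart.

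KEAP1 (chromosome 19, 10486120 to 10503741, minus strand) had 37.0, 39.8 and 36.4 CPM in BxPC3 with THZ1, against 86.8, 105 and 94.7 CPM with DMSO. Panc327 had 27.9, 25.7 and 25.5 CPM with THZ1, against 96.0, 95.3 and 94.5 CPM with DMSO. Every THZ1 library of these lines stood below 40 CPM and every DMSO library above 80 CPM. KEAP1 fell with log2 fold changes of -1.34 in BxPC3 (SE 0.07, edgeR adjusted p = 9.29e-31) and -1.85 in Panc327 (SE 0.08, edgeR adjusted p = 1.1e-37). In SUIT2 the levels overlapped, at 84.6, 81.2 and 77.7 CPM with THZ1 and 80.0, 90.7 and 82.1 CPM with DMSO, and the 95% interval was -0.17 to 0.07.

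The ratio of NFE2L2 counts to KEAP1 counts within a library needs no scaling between libraries. In BxPC3 it averaged 2.35 ± 0.0705 with THZ1 and 1.18 ± 0.144 with DMSO (SD, n = 3 each), a 1.99-fold difference. In Panc327 it averaged 2.60 ± 0.0220 with THZ1 and 1.01 ± 0.0463 with DMSO (SD, n = 3 each), a 2.59-fold difference. In both lines all 3 THZ1 ratios lay above all 3 DMSO ratios (exact two-sided permutation p = 0.1 each, the smallest that 3 against 3 allows). In SUIT2 the ratio averaged 1.54 ± 0.105 with THZ1 and 1.55 ± 0.147 with DMSO (SD, n = 3 each, exact permutation p = 1.0). These are 3 of 6 ratio tests, and none can pass 0.05 with 3 libraries a group.

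**Figure D2:**
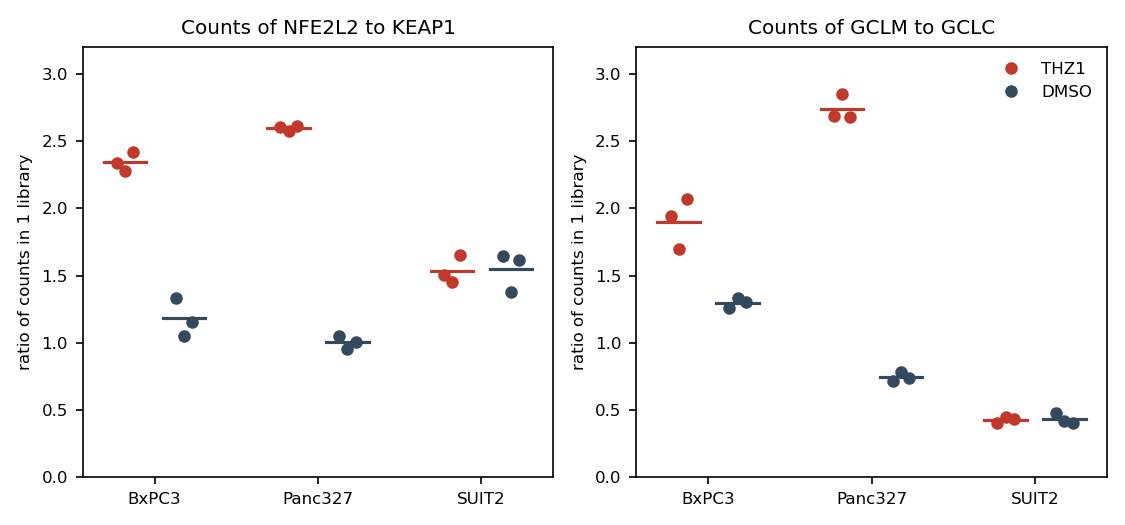
Ratio of counts within each library, NFE2L2 to KEAP1 on the left and GCLM to GCLC on the right, with THZ1 left of DMSO in each line (points are libraries, bars are means of 3). In BxPC3 and Panc327 the THZ1 libraries lie above the DMSO libraries in both panels, and in SUIT2 the groups overlap.

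MAFG (chromosome 17, 81918270 to 81927714, minus strand), a small MAF protein that has a DNA-binding domain but no activation domain, had 157, 168 and 154 CPM in BxPC3 with THZ1, against 52.8, 52.5 and 49.2 CPM with DMSO. It had 114, 119 and 135 CPM in Panc327 with THZ1, against 41.0, 38.4 and 40.1 CPM with DMSO. The groups were far apart in both lines. MAFG rose with log2 fold changes of 1.63 in BxPC3 (SE 0.06, edgeR adjusted p = 8.78e-42) and 1.62 in Panc327 (SE 0.07, edgeR adjusted p = 2.68e-39), at the 97.5th and 97.8th percentiles of all tested genes. With library size only the rises were 1.24 and 1.30. In SUIT2, MAFG had 52.0, 57.6 and 56.0 CPM with THZ1 and 57.0, 54.6 and 53.8 CPM with DMSO, with overlapping groups and a 95% interval of -0.13 to 0.13. An exon of MAFG lies within the span of SIRT7 on the same strand, so reads there are uncertain.

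Profiles over the 18 libraries were compared with those of 9598 genes by the root mean square difference of centred log2 CPM. Nearest to NFE2L2 were CNOT1, a scaffold of the CCR4-NOT deadenylase (0.0721), NOP14, a factor of small ribosomal subunit assembly (0.0847), and HNRNPF, an RNA-binding protein of splicing (0.0923), where the median gene stood at 0.611. Nearest to KEAP1 were REXO4 (0.116), C14orf80 (0.137) and SLC25A12, a mitochondrial aspartate and glutamate carrier (0.141), with a median gene at 0.899. Nearest to MAFG were OAZ1, the antizyme of ornithine decarboxylase (0.169), RBM33 (0.179) and COX6C, a subunit of cytochrome c oxidase (0.196), with a median gene at 0.919. All 6 groups and their shared line differences enter these distances.

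Glutathione synthesis starts with glutamate-cysteine ligase, made of the catalytic subunit GCLC and the modifier subunit GCLM, and their RNAs separated under THZ1. GCLC (chromosome 6, 53497341 to 53616970, minus strand) had 47.7, 50.4 and 40.7 CPM in BxPC3 with THZ1, against 66.4, 57.9 and 63.0 CPM with DMSO. In Panc327 it had 27.2, 25.9 and 28.8 CPM with THZ1, against 85.6, 86.7 and 89.5 CPM with DMSO. The groups did not overlap in either line, and the Panc327 libraries were much further apart than those of BxPC3. GCLC fell with log2 fold changes of -0.43 in BxPC3 (SE 0.07, edgeR adjusted p = 1.36e-07) and -1.67 in Panc327 (SE 0.08, edgeR adjusted p = 7.69e-35). SUIT2 had 76.6, 81.0 and 84.4 CPM with THZ1 and 82.7, 79.8 and 80.1 CPM with DMSO, with overlap and a 95% interval of -0.12 to 0.11.

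GCLM (chromosome 1, 93885205 to 93909456, minus strand) had 92.5, 85.6 and 84.2 CPM in BxPC3 with THZ1, against 83.7, 77.3 and 82.1 CPM with DMSO. In Panc327 it had 73.2, 73.7 and 77.1 CPM with THZ1, against 61.5, 67.7 and 66.5 CPM with DMSO. The THZ1 libraries were slightly higher in both lines on this scale. Its log2 fold change was 0.11 in BxPC3 (edgeR adjusted p = 0.122), but -0.29 with library size only (edgeR adjusted p = 5.84e-05) and 0.15 with RLE size factors (edgeR adjusted p = 0.0321), so that its direction there rests on the scaling. In Panc327 GCLM rose by 0.19 (edgeR adjusted p = 0.00854), but stood at -0.13 with library size only (edgeR adjusted p = 0.0785) and missed the threshold without DMSO replicate 1 (0.15, edgeR adjusted p = 0.0759). SUIT2 had 31.0, 36.6 and 36.4 CPM with THZ1 and 39.5, 33.3 and 32.6 CPM with DMSO, which overlapped.

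The ratio of GCLM to GCLC counts within a library averaged 1.90 ± 0.188 with THZ1 and 1.30 ± 0.0372 with DMSO in BxPC3 (SD, n = 3 each). In Panc327 it averaged 2.74 ± 0.0954 with THZ1 and 0.748 ± 0.0314 with DMSO (SD, n = 3 each), a 3.66-fold difference. All THZ1 ratios of these lines exceeded all DMSO ratios (exact two-sided permutation p = 0.1 each, the smallest possible). In SUIT2 the ratio averaged 0.429 ± 0.0233 with THZ1 and 0.434 ± 0.0379 with DMSO (SD, n = 3 each, exact permutation p = 0.9). With DMSO, GCLM counts thus exceeded GCLC counts in BxPC3 but not in Panc327 or SUIT2. A ratio shows unequal change of the 2 RNAs and not which one changed.

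TXNRD1 encodes the cytosolic thioredoxin reductase, and SRXN1 encodes sulfiredoxin, which restores over-oxidised peroxiredoxins. TXNRD1 (chromosome 12, 104215779 to 104350305, plus strand) had 176, 169 and 152 CPM in BxPC3 with THZ1, against 199, 189 and 200 CPM with DMSO. In Panc327 it had 108, 101 and 101 CPM with THZ1, against 154, 155 and 147 CPM with DMSO. In SUIT2 it had 849, 897 and 876 CPM with THZ1, against 1053, 1009 and 1026 CPM with DMSO. The groups did not overlap in any line, and TXNRD1 alone among the 10 genes fell in all 3 lines, with log2 fold changes of -0.25 in BxPC3 (SE 0.05, edgeR adjusted p = 2.87e-06), -0.55 in Panc327 (SE 0.05, edgeR adjusted p = 1.17e-16) and -0.24 in SUIT2 (SE 0.04, edgeR adjusted p = 1.49e-06).

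SRXN1 (chromosome 20, 646615 to 653370, minus strand) had 134, 121 and 129 CPM in BxPC3 with THZ1, against 182, 172 and 182 CPM with DMSO. It had 41.3, 45.1 and 40.6 CPM in Panc327 with THZ1, against 99.1, 100 and 97.0 CPM with DMSO. No THZ1 library reached a DMSO library in these lines. SRXN1 fell with log2 fold changes of -0.49 in BxPC3 (SE 0.05, edgeR adjusted p = 5.14e-14) and -1.22 in Panc327 (SE 0.07, edgeR adjusted p = 7.89e-30). SUIT2 had 68.9, 69.0 and 71.0 CPM with THZ1 and 79.1, 70.8 and 72.9 CPM with DMSO, with a small overlap and a 95% interval of -0.21 to 0.02.

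NQO1 (chromosome 16, 69706996 to 69726951, minus strand), a quinone reductase often used to read NRF2 activity, had 535, 531 and 520 CPM in BxPC3 with THZ1, against 297, 268 and 288 CPM with DMSO. It had 132, 136 and 138 CPM in Panc327 with THZ1, against 86.8, 84.3 and 81.0 CPM with DMSO. In SUIT2 it had 411, 414 and 407 CPM with THZ1, against 382, 370 and 374 CPM with DMSO. All THZ1 libraries were above all DMSO libraries of their line. NQO1 rose with log2 fold changes of 0.90 in BxPC3 (SE 0.04, edgeR adjusted p = 6.77e-36), 0.69 in Panc327 (SE 0.05, edgeR adjusted p = 2e-21) and 0.13 in SUIT2 (SE 0.04, edgeR adjusted p = 0.0172). With library size only these were 0.50, 0.36 and 0.11. The SUIT2 call was lost when DMSO replicate 2, DMSO replicate 3 or THZ1 replicate 2 was left out (0.12 each).

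HMOX1 (chromosome 22, 35380361 to 35394214, plus strand), the inducible haem oxygenase, was the least abundant of the 10 genes per kilobase in every DMSO group. It had 1.78, 0.707 and 2.16 CPM in BxPC3 with THZ1, against 2.31, 2.38 and 2.85 CPM with DMSO, from 4 to 13 and 19 to 25 counts a library. In Panc327 it had 0.694, 1.03 and 0.197 CPM with THZ1, against 2.66, 2.14 and 2.84 CPM with DMSO, from 10 and 70 counts over the 3 libraries. The groups did not overlap in either line. HMOX1 fell in Panc327 (-1.97, SE 0.43, edgeR adjusted p = 2.7e-05), and in BxPC3 its value of -0.68 missed the threshold (SE 0.33, edgeR adjusted p = 0.0626). The BxPC3 call depended on the setting: HMOX1 was called lower with library size only (-1.07), voom (-0.77), a fit of that line alone (-0.73) and without THZ1 replicate 3 (-1.01), and it stood at -0.35 without THZ1 replicate 2. In SUIT2 it had 4.03, 3.39 and 4.63 CPM with THZ1, against 2.91, 2.93 and 3.31 CPM with DMSO. The SUIT2 libraries with THZ1 were all higher, but at 0.40 the difference missed the threshold (SE 0.23, edgeR adjusted p = 0.265).

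OSGIN1 (chromosome 16, 83948282 to 83966332, plus strand), an oxidative stress induced growth inhibitor, had 2.31, 2.47 and 4.15 CPM in BxPC3 with THZ1, against 9.37, 13.0 and 13.6 CPM with DMSO. In Panc327 it had 0.347, 0.414 and 0.789 CPM with THZ1, against 4.55, 4.50 and 4.91 CPM with DMSO, from 8 and 128 counts over the 3 libraries. The groups did not overlap in either line. OSGIN1 fell with log2 fold changes of -1.99 in BxPC3 (SE 0.21, edgeR adjusted p = 1.05e-14) and -3.15 in Panc327 (SE 0.40, edgeR adjusted p = 3.48e-11), at the 4.21st and 1.02nd percentiles of all tested genes. SUIT2 had 12.1, 9.89 and 9.49 CPM with THZ1 and 8.86, 12.7 and 11.8 CPM with DMSO, and these overlapped.

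**Figure D3:**
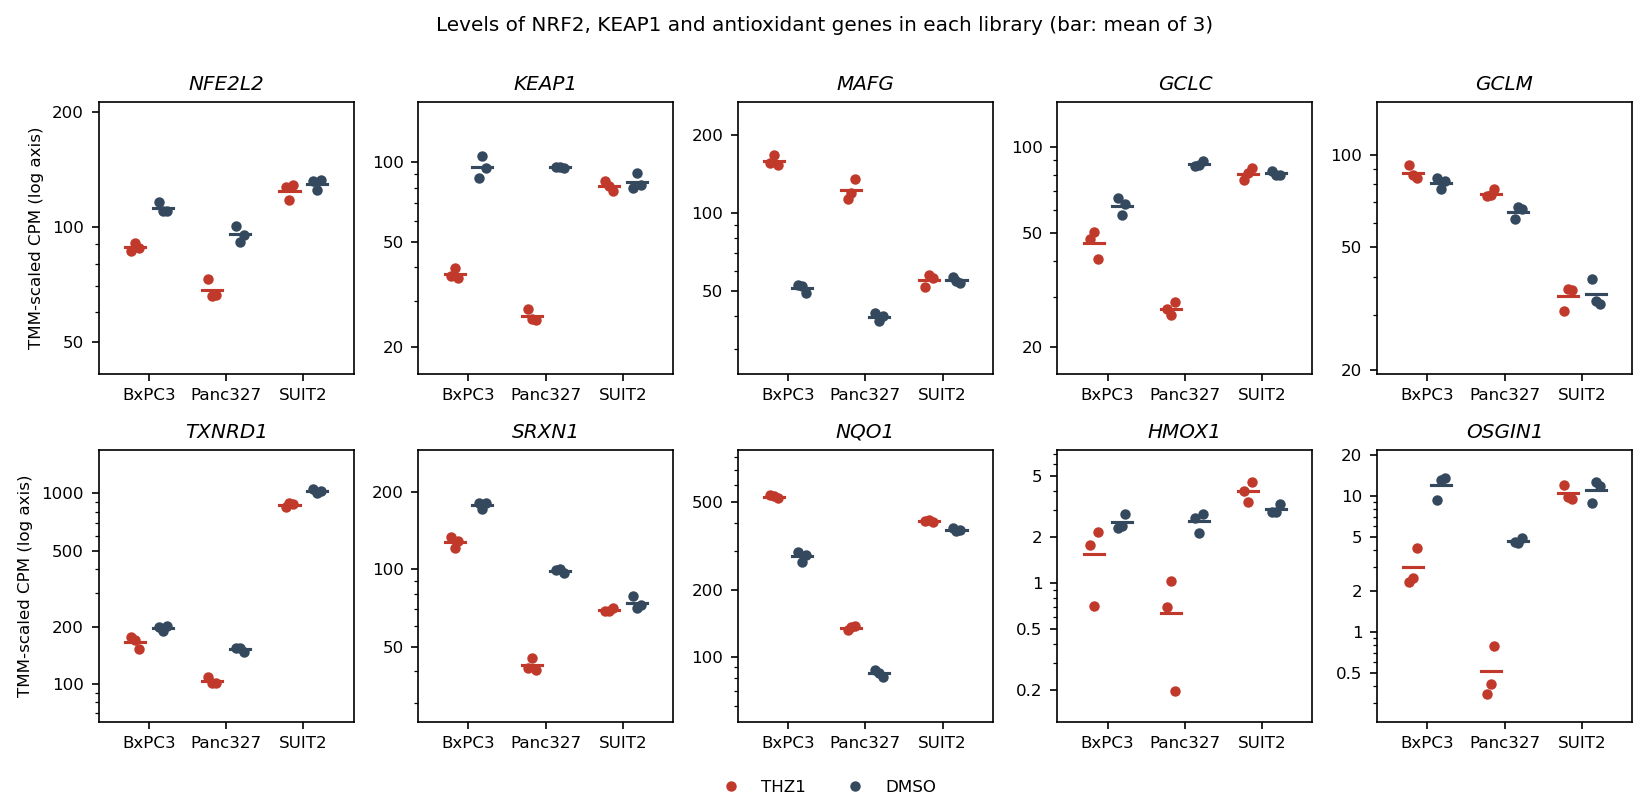
TMM-scaled CPM of each gene in each library (points, log axis with its own range per gene), with THZ1 left of DMSO in each line and bars at the mean of 3 libraries. THZ1 and DMSO libraries separate for every gene in BxPC3 and Panc327, and SUIT2 separates for TXNRD1, NQO1 and HMOX1. TXNRD1 is highest in SUIT2, and the small shifts of GCLM depend on the scaling.

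The responses were then compared between lines by the difference of the log2 fold changes. Between BxPC3 and Panc327, 5 of the 10 genes differed, all higher in BxPC3, against 22.2% of all tested genes called higher and 14.1% called lower (36.3% in all). GCLC differed most among the called genes (1.24, SE 0.11, edgeR adjusted p = 8.54e-17), followed by SRXN1 (0.74), KEAP1 (0.51), TXNRD1 (0.31) and NQO1 (0.21). The fall of GCLC, SRXN1, KEAP1 and TXNRD1 was thus smaller in BxPC3, and the rise of NQO1 larger. The call of NQO1 was lost with RLE size factors (0.13), library size only (0.14), DESeq2 (0.13) and a fit of these lines alone (0.07), and that of TXNRD1 with the last (0.17). That fit gave 3 genes higher and 1, GCLM, lower. The share of higher calls over all genes was 61.1% here, 49.6% with RLE size factors, 50.8% with library size only and 40.8% in the fit of these lines alone. HMOX1 (1.28, 95% interval 0.15 to 2.42, edgeR adjusted p = 0.0748) and OSGIN1 (1.15, 95% interval 0.09 to 2.22, edgeR adjusted p = 0.0899) had differences of similar size to GCLC but missed the threshold, and HMOX1 was called without THZ1 replicate 2 of BxPC3 (1.62) or of Panc327 (1.74). For GCLM (-0.08, 95% interval -0.27 to 0.10), NFE2L2 (0.14, -0.03 to 0.31) and MAFG (0.01, -0.17 to 0.19) no difference was detected.

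The response of BxPC3 differed from that of SUIT2 for 8 genes, with 2 higher and 6 lower, where 27.3% and 27.6% of all tested genes were called (54.9% in all). MAFG (1.63, SE 0.09, edgeR adjusted p = 1.05e-28) and NQO1 (0.77) were higher, and OSGIN1 (-1.91), KEAP1 (-1.29), HMOX1 (-1.08), GCLC (-0.43), SRXN1 (-0.39) and NFE2L2 (-0.28) were lower. The HMOX1 call was lost with DESeq2 (-1.04), without BxPC3 DMSO replicate 3 (-0.98) and without BxPC3 THZ1 replicate 2 (-0.75). For TXNRD1 the difference was -0.01 (95% interval -0.13 to 0.11), but -0.39 with library size only (edgeR adjusted p = 2.48e-08), and for GCLM it was 0.13 (-0.07 to 0.33), but -0.25 with library size only (edgeR adjusted p = 0.0345). Panc327 differed from SUIT2 for 9 genes, with 2 higher and 7 lower, where 28.3% and 32.4% of all tested genes were called (60.7% in all). MAFG (1.62) and NQO1 (0.56) were higher, and OSGIN1 (-3.07), HMOX1 (-2.37), KEAP1 (-1.80), GCLC (-1.67), SRXN1 (-1.13), NFE2L2 (-0.42) and TXNRD1 (-0.32) were lower. GCLM missed the threshold (0.22, edgeR adjusted p = 0.0702), but was called higher with RLE size factors and DESeq2 (0.34 each) and without SUIT2 DMSO replicate 3 (0.26), THZ1 replicate 2 (0.25) or THZ1 replicate 3 (0.25). The comparisons of responses share libraries of 1 line in pairs.

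With DMSO, 7 or 8 of the 10 genes differed between any 2 lines, close to the share of all tested genes, which was 78.6% to 82.5%. TXNRD1 averaged 196 ± 6.43 CPM in BxPC3, 152 ± 4.23 CPM in Panc327 and 1029 ± 22.1 CPM in SUIT2 (SD, n = 3 each), so that SUIT2 was 5.25-fold above BxPC3 and 6.76-fold above Panc327 (log2 -2.39 for BxPC3 minus SUIT2, edgeR adjusted p = 1.71e-69, and -2.76 for Panc327 minus SUIT2, edgeR adjusted p = 8.55e-74). NQO1 averaged 284 ± 14.8 CPM in BxPC3, 84.0 ± 2.91 CPM in Panc327 and 375 ± 5.74 CPM in SUIT2 (SD, n = 3 each), lowest in Panc327. SRXN1 was lowest in SUIT2, where TXNRD1 was highest, with 179 ± 5.87 CPM in BxPC3, 98.7 ± 1.53 CPM in Panc327 and 74.3 ± 4.28 CPM in SUIT2 (SD, n = 3 each). GCLM averaged 81.0 ± 3.37 CPM in BxPC3, 65.2 ± 3.29 CPM in Panc327 and 35.1 ± 3.77 CPM in SUIT2 (SD, n = 3 each). NFE2L2 and KEAP1 differed less than these targets. NFE2L2 averaged 112 ± 3.48, 95.8 ± 4.78 and 130 ± 4.14 CPM in BxPC3, Panc327 and SUIT2, and KEAP1 95.5 ± 9.06, 95.3 ± 0.739 and 84.3 ± 5.67 CPM in the same order (SD, n = 3 each). This was not particular to regulators, since GCLC (62.4, 87.3 and 80.9 CPM) and HMOX1 (2.51, 2.55 and 3.05 CPM) also differed little in fold.

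Between BxPC3 and Panc327 with DMSO, 7 of the 10 genes were higher in BxPC3 and 1, GCLC (-0.48), lower, against 38.6% and 40.7% of all tested genes (79.3% in all). The 7 were NQO1 (1.76), OSGIN1 (1.37), SRXN1 (0.86), MAFG (0.37), TXNRD1 (0.37), GCLM (0.31) and NFE2L2 (0.22). KEAP1 (0.00, 95% interval -0.11 to 0.12) and HMOX1 (-0.02, -0.53 to 0.50) were the exceptions. Between BxPC3 and SUIT2, 3 were higher and 4 lower, against 38.9% and 39.7% (78.6% in all). SRXN1 (1.27), GCLM (1.21) and KEAP1 (0.18) were higher in BxPC3, and TXNRD1 (-2.39), NQO1 (-0.40), GCLC (-0.37) and NFE2L2 (-0.22) lower. HMOX1 (-0.28), OSGIN1 (0.11) and MAFG (-0.10) were not called, MAFG being called with library size only (-0.15). The KEAP1 libraries of BxPC3 and SUIT2 overlapped, and without BxPC3 DMSO replicate 2 the difference was 0.11 and not called. Between Panc327 and SUIT2, 3 were higher and 5 lower, against 42.9% and 39.6% (82.5% in all). GCLM (0.90), SRXN1 (0.41) and KEAP1 (0.18) were higher in Panc327, and TXNRD1 (-2.76), NQO1 (-2.16), OSGIN1 (-1.26), MAFG (-0.47) and NFE2L2 (-0.44) lower. HMOX1 (-0.26) and GCLC (0.11) were not called, GCLC being called with RLE size factors (0.13).

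Per kilobase of annotated exon, the order of levels differed by line. In SUIT2 with DMSO, TXNRD1 led with 153 ± 3.30 CPM per kb, followed by NQO1 with 115 ± 1.76 and SRXN1 with 27.5 ± 1.59 CPM per kb (SD, n = 3 each). KEAP1 (22.4 ± 1.51) and NFE2L2 (21.7 ± 0.692 CPM per kb) came next and did not differ beyond their spread, and the lowest were OSGIN1 (3.22 ± 0.580) and HMOX1 (1.27 ± 0.0942 CPM per kb). In BxPC3 with DMSO the order began with NQO1 (87.4 ± 4.55), SRXN1 (66.4 ± 2.18) and TXNRD1 (29.2 ± 0.958 CPM per kb). In Panc327 with DMSO it began with SRXN1 (36.6 ± 0.567), followed by NQO1 (25.8 ± 0.895) and KEAP1 (25.3 ± 0.197 CPM per kb), whose levels overlapped in spread. Per kilobase, MAFG was the third of the 10 genes with THZ1 and the seventh with DMSO in BxPC3, and the second with THZ1 and the eighth with DMSO in Panc327. Single lengths per gene do not account for the isoforms each line uses.

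The remainder of the redox network was described with 6 lists that share some genes, 107 genes in all, of which 101 were tested. Of these, 74 rose and 15 fell in BxPC3, 65 rose and 20 fell in Panc327, and 16 rose and 4 fell in SUIT2. Of all tested genes, 35.2% rose and 34.1% fell in BxPC3, 35.6% rose and 37.8% fell in Panc327, and 6.95% rose and 7.64% fell in SUIT2, the shares against which the list counts below also stand. The medians were 0.47, 0.60 and 0.03. These counts depend on the scaling, since with library size only the median of all tested genes moved to -0.35 in BxPC3, -0.34 in Panc327 and 0.00 in SUIT2, and the share of higher calls among all calls was 26.8%, 31.0% and 39.3%, against 50.8%, 48.6% and 47.7% with TMM.

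Among the CNC factors and small MAF proteins, relatives and partners of NRF2, 5 of 6 tested genes rose and 1 fell in BxPC3 (median 0.76), 3 rose and 1 fell in Panc327 (0.41), and 3 rose in SUIT2 (0.16). With library size only, 4 rose and 2 fell in BxPC3 (median 0.36), and 3 rose and 3 fell in Panc327 (0.08). MAFK, a small MAF protein like MAFG, averaged 129 ± 3.01 CPM with THZ1 and 56.2 ± 5.74 CPM with DMSO in BxPC3, and 174 ± 13.1 CPM with THZ1 and 71.5 ± 2.47 CPM with DMSO in Panc327 (SD, n = 3 each; log2 fold changes 1.20 and 1.29). BACH1, which competes with NRF2 for antioxidant response elements and represses HMOX1, averaged 70.1 ± 0.326 CPM with THZ1 and 34.2 ± 1.81 CPM with DMSO in BxPC3 (1.04), 23.8 ± 1.62 CPM with THZ1 and 23.7 ± 2.73 CPM with DMSO in Panc327 (0.00), and 45.1 ± 1.31 CPM with THZ1 and 34.7 ± 0.567 CPM with DMSO in SUIT2 (0.38; SD, n = 3 each). MAFF rose in BxPC3 (0.92) and Panc327 (0.81), and so did NFE2L3 (0.60 in BxPC3 and 1.01 in Panc327). The single fall in BxPC3, of BACH2, was no longer called with DESeq2. It was also lost when DMSO replicate 1, THZ1 replicate 1 or THZ1 replicate 2 was left out. The single fall in Panc327 was also of BACH2, which averaged only 0.0578 CPM there with THZ1 and 0.653 CPM with DMSO. In a fit of Panc327 alone this fall was absent from the calls. At this level BACH2 may not have passed the count filter of that fit, so its absence does not show a lost call. In SUIT2 the count of 3 fell to 1 or 2 when any 1 SUIT2 library was left out. It was 1 without DMSO replicate 3 or THZ1 replicate 3. The SUIT2 call of NFE2L1 (0.11) was lost in 11 of 13 alternatives, among them RLE size factors and the replicate block.

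Genes of NRF2 turnover were split. In BxPC3, 8 of 13 rose and 4 fell (median 0.15), but 2 rose and 7 fell with library size only (median -0.25). In Panc327, 4 rose and 6 fell (median -0.09), against 5 of each with RLE size factors (median 0.03) and 3 and 9 with library size only (median -0.41). AMER1, which competes for KEAP1 binding, fell in BxPC3 (-1.55) and Panc327 (-2.25). PALB2, another KEAP1-binding protein, fell in the same 2 lines (-1.22 and -2.58), and so did SYVN1, a ubiquitin ligase also known as HRD1 (-0.64 and -1.38). RBX1, the RING subunit of the CUL3 ligase, rose by 0.68 and 0.63, and DPP3, a KEAP1-binding peptidase, by 0.59 and 0.67. CUL3 itself fell in Panc327 (-0.64). In BxPC3, CUL3 was called higher (0.15), a call lost in 6 of 13 alternatives, and it stood at -0.25 with library size only. FBXW11 rose in BxPC3 (0.51), a call lost with library size only (0.11), and fell in Panc327 (-0.23), a call lost with DESeq2 and with RLE size factors (-0.11). GSK3B, whose kinase product marks NRF2 for another ligase, rose in BxPC3 (0.30) and Panc327 (0.84). In SUIT2, GSK3B was the 1 gene called of 13 (0.22), and without DMSO replicate 3 it was not called.

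Of 39 other NRF2 targets tested, 28 rose and 6 fell in BxPC3 (median 0.40), 24 rose and 7 fell in Panc327 (0.52), and 5 rose and 4 fell in SUIT2 (-0.02), beside the 35.2% and 34.1%, 35.6% and 37.8%, and 6.95% and 7.64% of all tested genes called higher and lower in these lines. With library size only these counts became 10 and 15 in BxPC3 (median 0.01) and 19 and 12 in Panc327 (0.19). The ferritin light chain gene FTL averaged 1788 ± 25.3 CPM with THZ1 and 796 ± 12.7 CPM with DMSO in BxPC3, 1588 ± 104 CPM with THZ1 and 614 ± 26.0 CPM with DMSO in Panc327, and 476 ± 24.9 CPM with THZ1 and 412 ± 19.2 CPM with DMSO in SUIT2 (SD, n = 3 each), and it rose in all 3 lines (1.17, 1.37 and 0.21). Thioredoxin, TXN, the substrate of TXNRD1, rose by 1.15 in BxPC3 and 1.26 in Panc327 where TXNRD1 fell. FTH1, the ferritin heavy chain, rose by 1.10 in BxPC3 and 1.16 in Panc327. AKR1C1, an aldo-keto reductase, rose by 0.77 in BxPC3 and 1.28 in Panc327. TRIM16L fell in BxPC3 (-2.25) and Panc327 (-1.84), and CBR1, a carbonyl reductase, fell in BxPC3 to 24.8 ± 3.14 CPM with THZ1, against 49.6 ± 2.40 CPM with DMSO (SD, n = 3 each), in Panc327 (-0.97) and in SUIT2 (-0.23). RIT1, a small GTPase, fell in Panc327 (-0.76), and in BxPC3 its call (-0.33) was lost with RLE size factors, DESeq2 or when DMSO replicate 1 or 3 or THZ1 replicate 1 or 3 was left out. The transporter ABCC3 fell in SUIT2 (-0.38) but rose in BxPC3 (0.53) and Panc327 (0.52), where with library size only it was not called (0.13 and 0.19). FTL, FTH1, AKR1C1 and TRIM16L have near-identical copies, so their counts are uncertain.

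In the glutathione system more genes rose than fell: 20 of 28 rose and 3 fell in BxPC3 (median 0.50), 23 and 3 in Panc327 (0.75), and 4 rose in SUIT2 (0.01), while with library size only BxPC3 had 14 and 6 and Panc327 19 and 4. GPX4, which reduces lipid peroxides, averaged 303 ± 4.03 CPM with THZ1 and 135 ± 6.41 CPM with DMSO in BxPC3, and 219 ± 1.76 CPM with THZ1 and 90.8 ± 4.34 CPM with DMSO in Panc327 (SD, n = 3 each; log2 fold changes 1.17 and 1.27). GSTP1 (1.05) and MGST3 (1.08), glutathione transferases, rose in BxPC3, and GSTM2 (1.31) and GSTM3 (1.19) in Panc327, where reads of the GSTM family may be split between copies. GPX8 fell in BxPC3 (-0.67) and CHAC2, which degrades glutathione, fell in Panc327 (-1.36). In the thioredoxin system 16 of 18 rose and 1 fell in BxPC3 (median 0.77), 12 and 3 in Panc327 (0.63), and 3 rose in SUIT2 (0.05), and with library size only BxPC3 had 10 and 2 and Panc327 10 and 5. PRDX2 (1.20) and PRDX5 (1.19), peroxiredoxins, rose in Panc327, MSRA, a methionine sulfoxide reductase, rose in BxPC3 (1.17), and its relative MSRB1 fell there (-0.67). SESN2, a sestrin induced by stress, averaged 3.60 ± 0.832 CPM with THZ1 and 18.5 ± 1.75 CPM with DMSO in Panc327 (SD, n = 3 each), a log2 fold change of -2.36. In BxPC3, SESN2 was called higher (0.30), but not without DMSO replicate 1 or THZ1 replicate 2, and it stood at -0.10 with library size only. SESN1 fell in Panc327 (-0.56), and SESN3 rose in SUIT2 (0.48).

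TXNIP, the inhibitor of thioredoxin, averaged 379 ± 11.3 CPM with THZ1 and 157 ± 3.77 CPM with DMSO in BxPC3 (1.27), and 72.7 ± 7.37 CPM with THZ1 and 84.2 ± 1.06 CPM with DMSO in Panc327 (-0.21; SD, n = 3 each), where the call was lost with RLE size factors and with DESeq2 (-0.09 each). All 3 tested genes of superoxide and peroxide removal rose in BxPC3 and Panc327, also with library size only. SOD2 rose by 1.27 and 0.74 and SOD1 by 0.79 and 0.91, and catalase, CAT, averaged 102 ± 2.96 CPM with THZ1 and 50.8 ± 3.91 CPM with DMSO in BxPC3 (SD, n = 3 each) and rose by 0.78 in Panc327. SOD2 was also called in SUIT2 (0.20), but not in 11 of 13 alternatives. Of the 17 genes named by the same rule in SUIT2, 11 lost their call in at least 1 alternative. Leaving out any 1 SUIT2 library brought the rises in the glutathione system to 1 or 2. Rises among the other NRF2 targets came to 3 without DMSO replicate 1 or 3 or THZ1 replicate 1 or 3, and falls to 2 without DMSO replicate 1 or THZ1 replicate 2. Rises in the thioredoxin system came to 1 without THZ1 replicate 1.

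**Figure D4:**
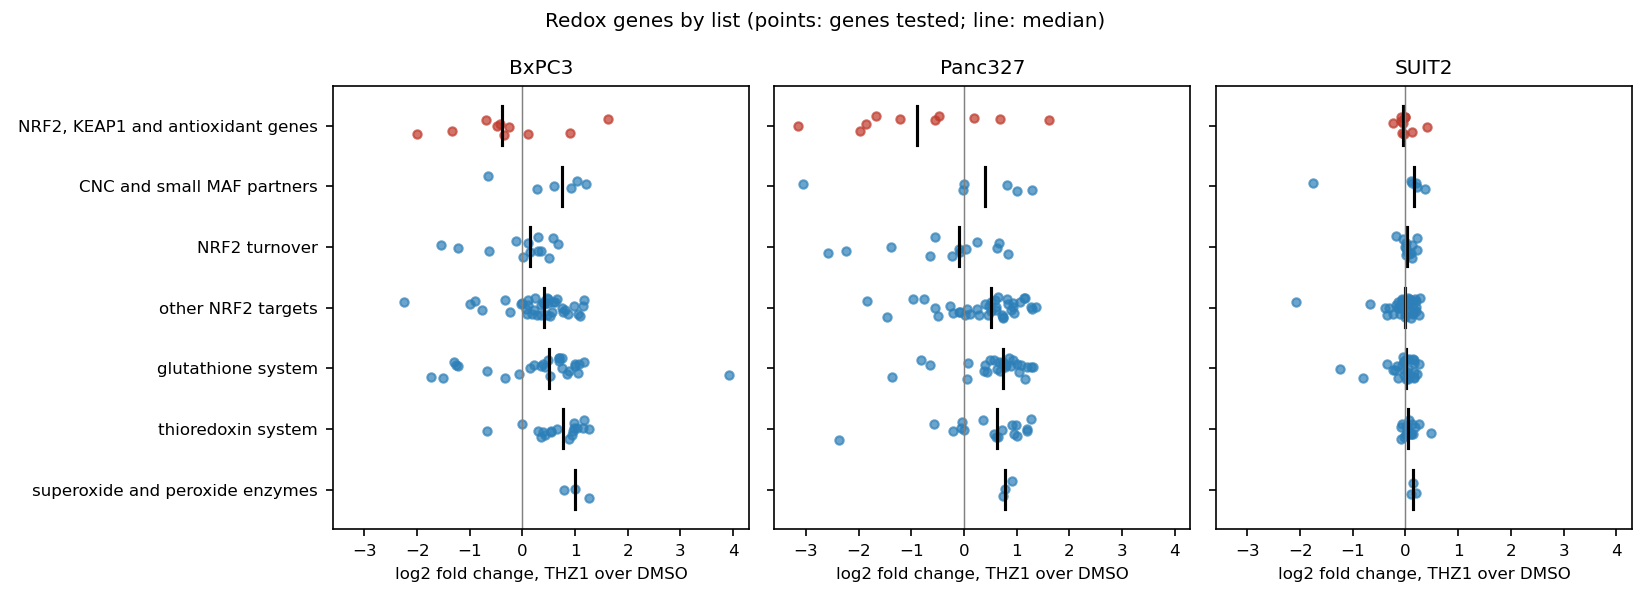
Log2 fold change of THZ1 over DMSO for each tested gene (points) of the 10 genes described first, in red, and of 6 redox lists, in blue, in BxPC3, Panc327 and SUIT2, with the median of each list as a black line. The medians of the 10 genes are -0.39, -0.89 and -0.04, most of the other lists have medians above 0 in BxPC3 and Panc327, and with library size only the BxPC3 values shift down as a whole, turning the median of the turnover genes to -0.25. The far right BxPC3 point is GSTM2, which had 0 CPM with DMSO, so its fitted value is no bound.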

How the data were processed

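Each of the 18 libraries has 1 deposited file of raw counts per gene symbol. Per the submitters' processing notes, the authors used TopHat2 2.1.0, HTSeq 0.6.1, bcl2fastq 1.8.4 and the genome build hg38. Libraries were prepared with a TruSeq RNA v2 kit, per the labels' protocols. Which annotation, strand setting and counting mode they used is not given in the sources used here. The files also have 5 summary entries of the counting tool (21.3% to 64.6% of records), which were left out.

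Counts were fitted in R 4.3.3 with edgeR 4.0.16 on 6 group means (filterByExpr with minimum count 10 and minimum total 15, TMM, robust quasi-likelihood, 12 residual degrees of freedom), for THZ1 against DMSO in each line, differences of these responses, and lines with DMSO. The SE is approximate (size of the log2 fold change over the root of its F statistic), and 95% intervals use it. Alternatives were library size only, RLE size factors, DESeq2 1.42.0, voom in limma 3.58.1, all genes unfiltered, a fit of the compared lines alone, a replicate block, and 1 library left out at a time. Ratios were tested by exact permutation in Python 3.11.15 with scipy 1.17.1. The pipeline was tested on simulated data.

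The 10 genes and the lists were chosen with earlier results of these data known. All 10 are given in every comparison, and from each list up to 3 called genes per direction with the largest change and, in either group, a mean of 10 CPM or more; in SUIT2 some of these are given as counts, and 1 is not reported here. A list gene given for 1 line may also have been called in another line, and CUL3 was added outside the rule of largest changes. Positions and exon lengths are from GENCODE 29. Replicate pairs differed by more than sampling noise (chi-square per degree of freedom 1.25 to 2.52 over 18 pairs).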

Additional observations from a re-analysis of the deposited data

Results flagged for a closer look

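The THZ1 response differed between lines, by the test of the difference itself, for the following genes, given as log2 differences of the fold changes. For BxPC3 minus Panc327 they were KEAP1 (0.51), GCLC (1.24), TXNRD1 (0.31), SRXN1 (0.74) and NQO1 (0.21). For BxPC3 minus SUIT2 they were NFE2L2 (-0.28), KEAP1 (-1.29), MAFG (1.63), GCLC (-0.43), SRXN1 (-0.39), NQO1 (0.77), HMOX1 (-1.08) and OSGIN1 (-1.91). For Panc327 minus SUIT2 they were NFE2L2 (-0.42), KEAP1 (-1.80), MAFG (1.62), GCLC (-1.67), TXNRD1 (-0.32), SRXN1 (-1.13), NQO1 (0.56), HMOX1 (-2.37) and OSGIN1 (-3.07).

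Outside the gene counts, records aligned to several places made up 22.8% with THZ1 and 12.8% with DMSO in BxPC3, and 52.8% with THZ1 and 13.6% with DMSO in Panc327. With 3 libraries a group, single libraries were not tested for standing apart.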

How the results depend on the processing

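The 90 values of the 10 genes (9 comparisons) were recomputed under the alternatives, which gave 1349 values. Of these, 1316 kept direction and side of the threshold, 14 lost the call, 16 gained one and 3 reversed. The 3 reversals were all of GCLM with library size only: -0.29 in BxPC3, -0.13 in Panc327 and -0.25 for the response difference BxPC3 minus SUIT2; this scaling moves the median gene down with THZ1 in BxPC3 and Panc327. Among the counts of called genes, the 1 gene higher in SUIT2 ranged from 0 to 1 when 1 library was left out. For the response difference BxPC3 minus Panc327, the fit of these lines alone gave 3 genes higher and 1 lower, against 5 and 0; the cause was not tested. DESeq2 gave no adjusted p for HMOX1 in SUIT2.

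The same replicate numbers occur in all groups, but same-numbered libraries of a line did not deviate together (correlations of -0.21 to 0.04). Differently numbered libraries of a line had correlations of -0.09 to 0.17. These are deviations from means of 3 libraries within a line, so they cannot show whether same-numbered libraries were handled together. With the numbers as a replicate block, 90 of 90 values kept their call, and the counts of genes higher and lower stayed 2 and 6 in BxPC3, 3 and 7 in Panc327, and 1 and 1 in SUIT2.

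Depth limited HMOX1 and OSGIN1, which rest on 10 and 8 counts over the 3 Panc327 libraries with THZ1.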

Other observations

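The high TXNRD1 level of SUIT2 was followed to the genes within 500 kb of it on chromosome 12, a window chosen after the level was seen. With DMSO, SLC41A2, a magnesium transporter gene, averaged 0.230 ± 0.195 CPM in BxPC3, 7.23 ± 0.405 CPM in Panc327 and 30.9 ± 0.259 CPM in SUIT2 (SD, n = 3 each). CHST11, a chondroitin sulfotransferase gene, averaged 4.39 ± 0.838 CPM in BxPC3, 99.4 ± 1.93 CPM in Panc327 and 113 ± 2.35 CPM in SUIT2. EID3, which lies in an intron of TXNRD1 on the same strand, averaged 0.157 ± 0.136 CPM in BxPC3, 0.253 ± 0.162 CPM in Panc327 and 1.56 ± 0.638 CPM in SUIT2. Its few reads may include reads of TXNRD1. By contrast HSP90B1, a chaperone of the endoplasmic reticulum, averaged 1156 ± 46.8 CPM in BxPC3, 1667 ± 50.2 CPM in Panc327 and 1293 ± 49.6 CPM in SUIT2, and TDG, a DNA glycosylase, was lowest in SUIT2 (45.9 ± 2.63 CPM). In BxPC3, Panc327 and SUIT2, NT5DC3 averaged 7.57, 23.1 and 27.0 CPM, C12orf73 2.46, 4.80 and 7.43 CPM, and HCFC2 6.60, 9.08 and 10.7 CPM. Their means followed the same order of lines as SLC41A2, CHST11 and EID3. The means of HSP90B1, TDG and NFYB (27.3, 40.6 and 32.3 CPM) did not. The share of all tested genes with that order of means was not computed, so the order is a description only. Between Panc327 and SUIT2 with DMSO, HCFC2 was not called (-0.23, edgeR adjusted p = 0.117). NT5DC3 was called close to the threshold (-0.22, edgeR adjusted p = 0.0471). TXNRD1 itself was lowest in Panc327.

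The core letters TGACNNNGC occurred in 11 of 37 promoter windows of the other NRF2 targets (29.7%), against 13.3% of all windows, as a description with no test. These windows belong to 28 genes. The related form TGAGNNNGC occurred in 7 of the 37 windows (18.9%), close to the 18.3% of all windows.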
